A study of Homo sapiens with 16 samples.

Results

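Phagocytosis checkpoint and efferocytosis genes were examined in single cells of mouse mammary tumors. They were 10 of the 32285 genes counted: Cd47, Cd24a, Gas6, Pros1, Mfge8, Sirpa, Lrp1, Axl, Mertk and Tyro3. They were chosen by name, for their place in the signals that hold a phagocyte back from another cell or direct it to a dying one. The choice was made with earlier results of these data known. The tumors were LPA1-T22 (T22) and LPA1-T127 (T127), a pair of murine-derived syngeneic transplant (MDST) models that came from mice with a transgene for the LPA1 receptor in the mammary epithelium. Pieces of either tumor were transplanted into the mammary fat pad of female FVB mice, 6 weeks old when purchased, and the mice received vehicle or olaparib, an inhibitor of PARP enzymes, by mouth at 50 mg/kg per day. Short-term tumors were taken after 4 or 8 days of treatment and captured in 4 pools of T22 tumors and 4 pools of T127 tumors. Long-term tumors, treated for 20 days, were captured in 8 pools that mixed T22 and T127 tumors. A mouse carried the same tumor on both sides, or T22 and T127 on opposite sides. Although the organism is registered as Homo sapiens, the source is given as FVB mice and the counted genes carry mouse symbols.

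A pool is a droplet capture of cells from several tagged tumors, and the files used here do not assign cells to tumors. Vehicle and olaparib cells were therefore not compared, nor single and co-transplanted tumors. Pools are repeated captures of tumor mixes and not replicates of a condition, so no test between groups was made. In the short-term experiment the model and the pools it was captured in cannot be told apart. Transcripts were counted by their unique molecular identifiers (UMIs). The level of a gene was its UMIs summed over the cells of a deposited cluster name, per 1000000 UMIs of all genes in those cells (CPM), given with its range over pools. Intervals at 95% cover counting error only. Levels were compared for 1 gene between cells and not between genes. The measure is RNA, intronic reads included, and not protein on the cell surface.

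As background, CD47 is a membrane protein of most cells that engages SIRPα, encoded by Sirpa, on macrophages and restrains engulfment. CD24 is a small sialylated protein that is bound by inhibitory Siglec receptors. In the clearance of apoptotic cells, called efferocytosis, phosphatidylserine on the outer leaflet of the dying cell is the main signal. GAS6 bridges it to the receptor tyrosine kinases TYRO3, AXL and MERTK, and protein S (Pros1) to TYRO3 and MERTK. MFG-E8 bridges it to integrins. LRP1 is a large endocytic receptor that takes part in uptake through calreticulin and other ligands. In tumors, macrophages can use the same machinery on malignant cells. Cells that had bound Annexin V, a protein with affinity for phosphatidylserine, were removed before capture, so cells exposing that signal were depleted from all pools.

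Depth and shared barcodes bear on the levels. The 16 pools held 53946 cells and 34755906 to 55600377 UMIs per pool, with medians of 3105 to 11712 UMIs per cell in the long-term pools, 7730 to 8528 in the short-term T22 pools and 22712 to 26017 in the short-term T127 pools. Long-term pools 1 and 2 shared 3939 cell barcodes, of which 2064 carried the same cluster name in both, pools 1 and 3 had 987 in common, and pools 2 and 3 had 1082. Other long-term pairs shared 1 to 8. The deepest copy of each shared barcode was kept, which left 25723 of 30845 long-term cells. The members' long-term ratios were also computed without pools 1 to 3.

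Long-term pools 1 to 4 and pools 5 to 8 stood apart in the levels of many genes, although the labels describe all 8 alike. In T127 malignant cells, 42.2% of the 7050 genes at 10 CPM or more had ranges over pools 1 to 4 and over pools 5 to 8 that did not overlap. The share was 25.1% of 7267 genes in T22 malignant cells and 33.8% of 6766 genes in Macro-M2 cells. Among the members at this level, 5 of 7 lay higher in pools 5 to 8 in T127 malignant cells, and none lay lower. In T22 malignant cells 1 of 8 lay higher and 2 lower, and in Macro-M2 cells 4 of 9 lay higher and 1 lower. Cd24a in Malign_0 cells, for example, was at 91.9 to 97.3 CPM in pools 1 to 4 and 134 to 151 CPM in pools 5 to 8. Gas6 in T22 malignant cells was at 442 to 494 CPM in pools 1 to 4 and 333 to 359.8 CPM in pools 5 to 8. Lrp1 in Macro-M2 cells was at 139.9 to 160.4 CPM in pools 1 to 4 and 182 to 257 CPM in pools 5 to 8. What separates these pools was not tested. The split was noticed in the values and is not a group of the study, so the members' long-term ratios were also computed within each set of pools. Of 72 such ratios between long-term cell groups, with a member at 10 CPM or more, 71 kept their direction in pools 1 to 4, in pools 5 to 8 and without pools 1 to 3. In the other, Lrp1 of pDC over B cells, the log2 ratio was -0.22 in pools 1 to 4 and 0.23 in pools 5 to 8.

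The cluster names were checked against markers. Malign_0 and Malign_1 were the malignant names of the short-term T127 pools, and Malign_2 and Malign_3 those of the short-term T22 pools, and these pairs are called T127 and T22 malignant cells in the long-term pools too. Epcam, an epithelial adhesion protein, was at 922 CPM in Malign_2 and 2779.7 in Malign_3, but at 3.30 in Malign_0 and 5.87 in Malign_1 (long-term). The epithelial cadherin Cdh1 was at 0.560 and 0.709 CPM in the T127 clusters, which carried the keratin gene Krt8 at 735 and 480.2 CPM and the stromal proteoglycan gene Dcn at 4305 and 4324. The defining epithelial markers Epcam and Cdh1 were therefore near 0 in cells named malignant in T127. The other fibroblast markers did not all go with Dcn. In short-term Malign_0 cells Dcn was at 2579 CPM and Pdgfra at 309. Pdgfrb was at 8.18 CPM there, Col1a1 at 1.51, Col1a2 at 0.882 and Acta2 at 0.0744. In inflammatory fibroblasts (i_CAF) of the same pools Col1a1 was at 17726 CPM and Col1a2 at 17037. The complement gene C1qa, a macrophage marker, was at 8632 CPM in Macro-M2 and at 30.5 in Malign_0, which gives the scale of macrophage RNA outside macrophages. CD14-IL1B cells carried Cd14 at 1577 CPM, Lyz2 at 3572 and Adgre1 at 14.2 in the long-term pools. They also carried Epcam, at 992 CPM, but Krt8 only at 12.3. CD16-CDKN1C, a name built from monocyte genes, had C1qa at 8512 and Adgre1 at 106 CPM, close to the 8632 and 115 of Macro-M2, so these markers did not set it apart from the macrophage clusters. Macro-M1 and Macro-M2 are the deposited names and are used here only as names.

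**Figure D1:**
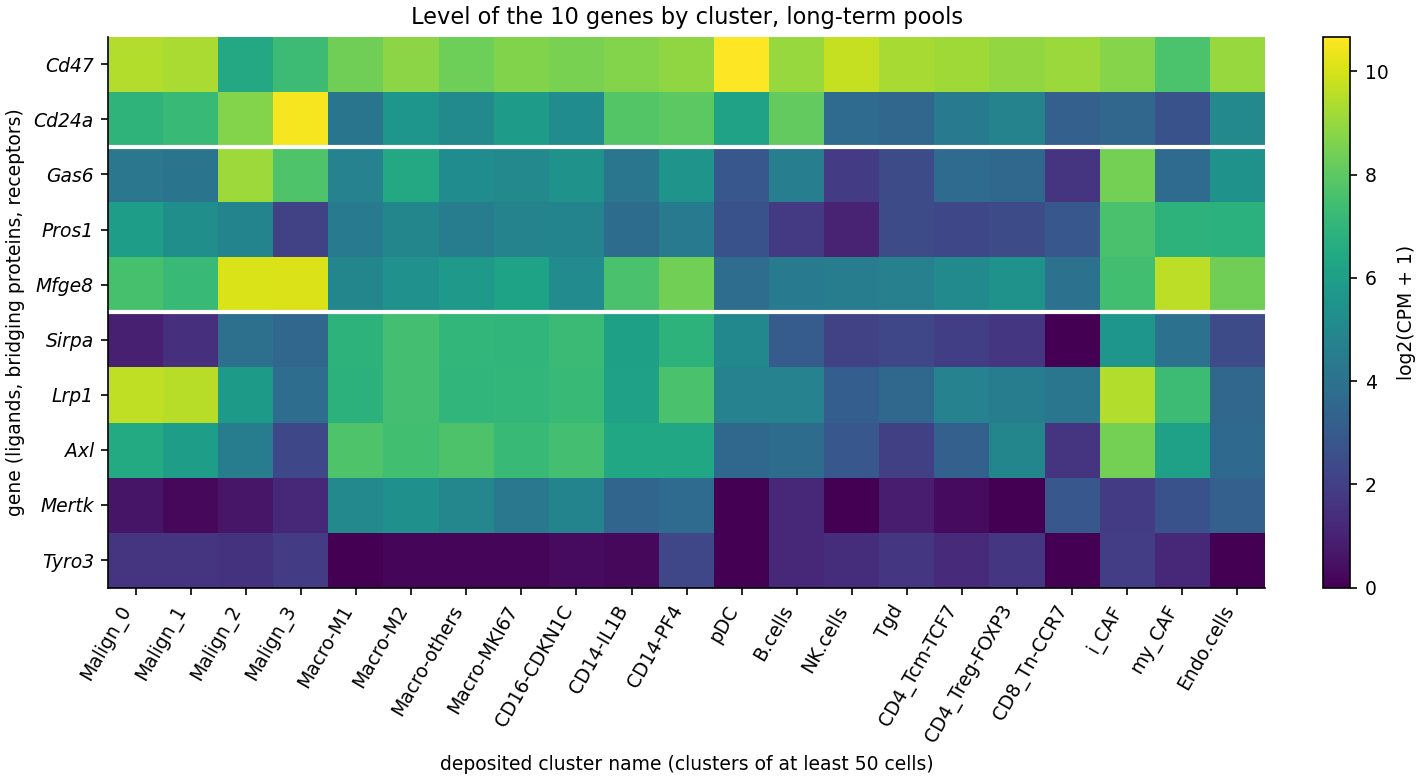
Levels of the 10 genes, as log2(CPM + 1), in the 21 clusters of at least 50 cells in the long-term pools, with white lines between ligands, bridging proteins and receptors. Cd47 was highest in pDC (1628 CPM) and lowest in Malign_2 (86.3 CPM), whereas Sirpa and Mertk were concentrated in the macrophage and CD16-CDKN1C columns.

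Cd47, the don't-eat-me ligand, was high in T127 and low in T22 malignant cells. In long-term Malign_0 cells it was at 651 CPM in the lowest pool, 699 at the median and 741 in the highest (2809 cells). In Malign_1 it was at 549 CPM in the lowest pool, 628 at the median and 670.1 in the highest (1794 cells). In Malign_2 it was at 73.9 CPM in the lowest pool, 87.0 at the median and 95.6 in the highest (1352 cells), and in Malign_3 at 115 CPM in the lowest pool, 164 at the median and 173 in the highest (907 cells). Every pool of the T127 clusters lay above every pool of the T22 clusters. Summed over both clusters of a model, Cd47 was at 670.0 CPM in T127 (95% interval 665 to 675) and 116 CPM in T22 (112 to 119), so it was 5.80-fold (95% interval 5.63 to 5.98) higher in T127. The log2 ratio of T22 to T127 was -2.54 over all pools, -2.64 in pools 1 to 4, -2.42 in pools 5 to 8 and -2.46 without pools 1 to 3.

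The short-term pools, other tumors taken earlier in treatment, held nearly the same Cd47 levels in each malignant cluster. Malign_0 was at 614, 643, 711 and 616 CPM in the 4 T127 pools, and Malign_1 at 581, 634, 704 and 586 CPM. Malign_2 was at 92, 82.4, 93.3 and 88.4 CPM in the 4 T22 pools, and Malign_3 at 135, 199, 135 and 210.3 CPM. No T22 pool reached a T127 pool, and the difference was 6.60-fold (95% interval 6.42 to 6.79). Short-term over long-term ratios of the same cluster were 0.928 in Malign_0, 0.993 in Malign_1, 1.03 in Malign_2 and 1.04 in Malign_3, with overlapping pool ranges in all 4 clusters. Within T22, Cd47 was 1.85-fold (95% interval 1.74 to 1.96) higher in Malign_3 than in Malign_2 in the long-term pools and 1.85-fold (95% interval 1.72 to 1.99) higher in the short-term pools, with pool ranges apart in both.

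The shares of cells with a Cd47 UMI followed these levels and are no separate measure. After thinning each cell to 3000 UMIs, 82.8% (exact 95% interval 81.6 to 83.9) of long-term T127 malignant cells and 25.1% (exact 95% interval 23.3 to 26.9) of T22 malignant cells had at least 1 Cd47 UMI, over 4603 and 2259 cells, none of which was shallower than that. Unthinned, the shares were 99.8% and 72.6%, at median depths of 20068 and 15599 UMIs per cell.

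Outside the tumor cells, plasmacytoid dendritic cells (pDC) had the highest Cd47 level in the long-term pools, at 1628 CPM (1491 to 1754 over pools, 170 cells), apart from NK cells in second place at 858 CPM (723 to 1095). From NK cells down to Malign_3, neighbours in the order had overlapping ranges, and Malign_2, the lowest, lay apart from Malign_3. The pDC level was 2166, 2469, 2606 and 2363 CPM in the 4 short-term T127 pools, again above all malignant clusters. Macrophages carried Cd47 themselves, at 448 CPM in Macro-M2, 404 in Macro-MKI67, 323 in Macro-M1 and 318 in Macro-others (long-term). As one sum, these 4 macrophage clusters lay 3.26-fold (95% interval 3.16 to 3.37) above T22 malignant cells and 1.78-fold (95% interval 1.76 to 1.80) below T127 malignant cells, each in 8 of 8 pools. The T22 malignant cells thus had less Cd47 RNA than the macrophages of the same pools.

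Cd24a, the second inhibitory ligand, ran the other way. Long-term Malign_3 cells were at 1314 CPM in the lowest pool, 1469.8 at the median and 1658 in the highest, and Malign_2 cells at 401 CPM in the lowest pool, 416 at the median and 441 in the highest. Malign_1 was at 133 CPM in the lowest pool, 152 at the median and 217 in the highest, and Malign_0 at 91.9 CPM in the lowest pool, 116 at the median and 151 in the highest. All pools of both T22 clusters lay above all pools of both T127 clusters, by 6.37-fold (95% interval 6.24 to 6.50) for the summed models. The log2 ratio of T22 to T127 was 2.67 over all pools, 2.85 in pools 1 to 4, 2.50 in pools 5 to 8 and 2.54 without pools 1 to 3. The T22 clusters differed from each other too, Malign_3 being 3.56-fold (95% interval 3.47 to 3.64) above Malign_2, and Epcam stood 2779.7 against 922 CPM beside it.

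Short-term levels of Cd24a were close to these. Malign_3 was at 1410.4, 1463, 1373 and 1507 CPM in the T22 pools and Malign_2 at 445, 443, 452 and 416 CPM. Malign_0 was at 141, 144, 140.4 and 129 CPM in the T127 pools and Malign_1 at 145, 146, 158 and 142 CPM. The model ratio was 3.76-fold (95% interval 3.70 to 3.83), lower than in the long-term pools, where Malign_3 made up 907 of 2259 T22 malignant cells against 218 of 1954 in the short-term pools. Within a cluster, the short-term over long-term ratio lay between 0.966 in Malign_3 and 1.15 in Malign_0, and pool ranges overlapped in all 4 clusters.

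Among other long-term cells, B cells were at 274 CPM (102 to 407 over pools), CD14-PF4 cells at 249.9 and CD14-IL1B cells at 222. In the short-term pools CD14-IL1B cells were at 305, 426, 288 and 382 CPM in T22 and 383, 347, 346 and 361 CPM in T127, and the long-term range of 158 to 323 overlapped the first and lay below the second. Their Epcam was at 992 CPM in the long-term, 167 in the short-term T22 and 636 in the short-term T127 pools, and its part in the Cd24a level was not tested. Macrophage clusters had 16.6 to 58.1 CPM of Cd24a in the long-term pools. The Siglec receptor gene Siglecg was at 0.658 CPM in Macro-M2 and 0.851 in Macro-M1 there. In short-term Macro-M2 cells it was at 3.16 CPM in T127 and 2.75 in T22. Whether Cd24a on malignant cells acts on these macrophages was not tested.

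Joint detection of both ligands in single malignant cells followed the share of each. In long-term Malign_0, 83.7% of thinned cells had a Cd47 UMI, 26.2% a Cd24a UMI and 21.8% both, and the product of the single shares was 21.9%. In Malign_2, 18.7% of thinned cells had a Cd47 UMI, 66.0% a Cd24a UMI and 12.6% both, and the product of the single shares was 12.3%. In Malign_3, 34.5% of thinned cells had a Cd47 UMI, 97.2% a Cd24a UMI and 33.1% both, and the product of the single shares was 33.6%. In these malignant clusters the shares of both thus restate the levels of each gene. In the 4 long-term macrophage clusters 5.06% of thinned cells had both, beside a product of 4.15%. T and NK cells had a Cd24a UMI in 3.63% of cells, and no cluster lacked Cd47, so no background share is given for it.

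**Figure D2:**
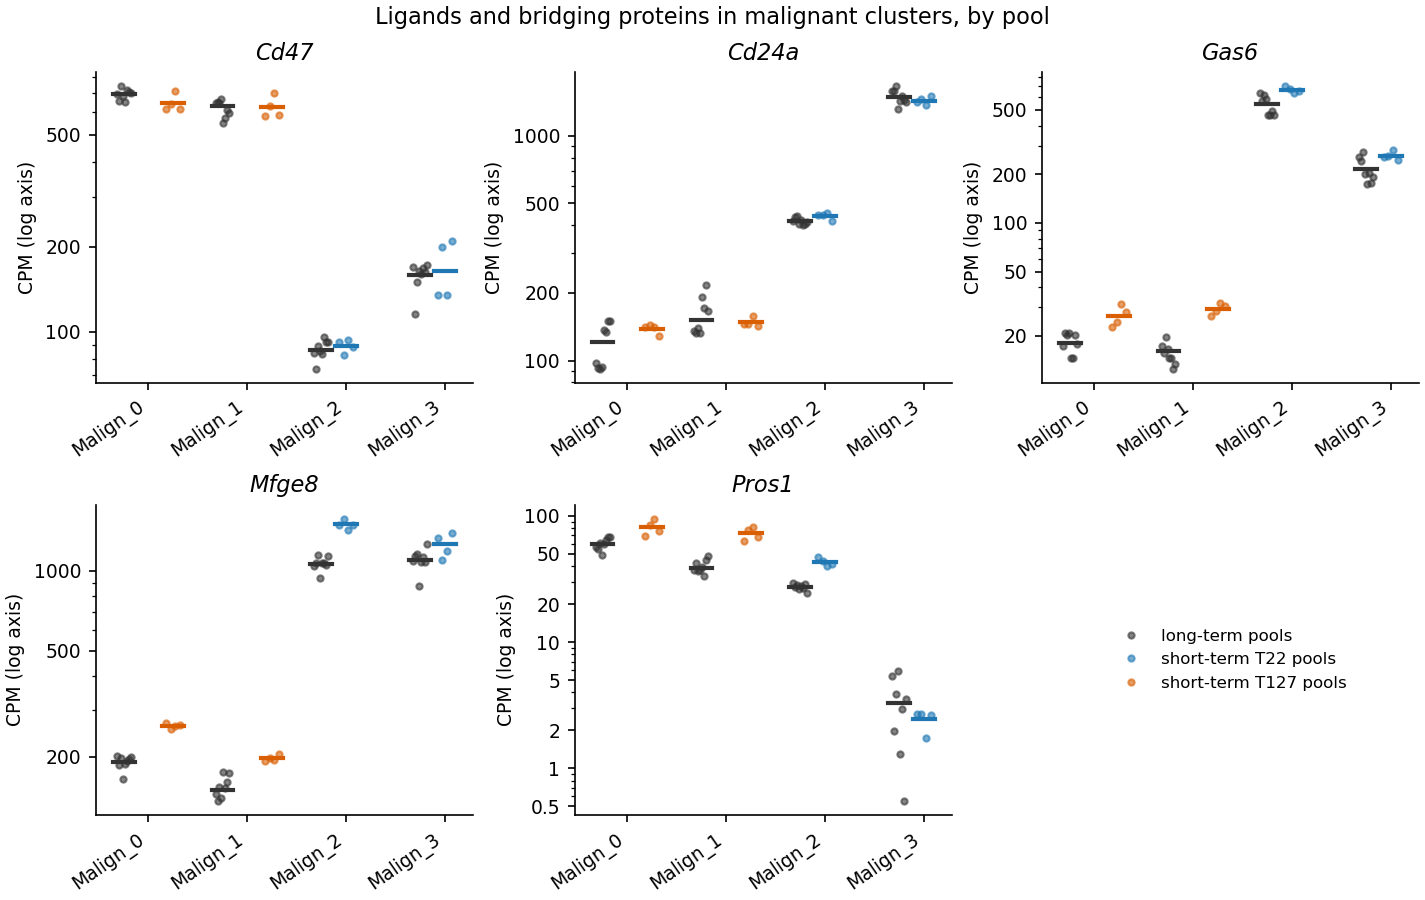
Levels in CPM (log axis) of the ligands Cd47 and Cd24a and the bridging genes Gas6, Mfge8 and Pros1 in the 4 malignant clusters, with a dot for each pool and a bar for the level over all pools of an experiment. Cd47 dots of Malign_0 and Malign_1 (T127) lie at 549 to 741 CPM in the long-term pools and those of Malign_2 and Malign_3 (T22) at 73.9 to 173, whereas Cd24a, Gas6 and Mfge8 are higher in the T22 clusters.

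The bridging gene Gas6, whose product binds phosphatidylserine and the kinases AXL, MERTK and TYRO3, was highest in T22 malignant cells and i_CAF. Long-term Malign_2 cells were at 463 CPM in the lowest pool, 528 at the median and 632 in the highest. Malign_3 cells were at 175 CPM in the lowest pool, 202 at the median and 275 in the highest. The T127 clusters Malign_0 and Malign_1 had 18.0 and 16.2 CPM, with pool ranges of 14.5 to 20.8 and 12.5 to 19.7. Ranges of the models did not overlap, and Gas6 was 23.9-fold (95% interval 22.8 to 25.1) higher in T22. The log2 ratio was 4.58 over all pools, 4.66 in pools 1 to 4, 4.44 in pools 5 to 8 and 4.48 without pools 1 to 3. T and NK cells, which gave the background level of these pools, had 7.94 CPM.

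In the short-term T22 pools Malign_2 had 699, 676, 632 and 659 CPM and Malign_3 256, 259, 283 and 244 CPM. Malign_0 had 22.7, 24.5, 31.4 and 28.2 CPM in the T127 pools. The model ratio was 22.5-fold (95% interval 21.9 to 23.2), and Malign_3 lay 2.57-fold (95% interval 2.43 to 2.71) below Malign_2, as against 2.55-fold (95% interval 2.46 to 2.65) in the long-term pools. Inflammatory fibroblasts (i_CAF) were at 347 CPM in the long-term pools (251 to 449), at 168, 149.8, 89.1 and 238 CPM in the short-term T22 pools and at 373, 456, 779 and 386 CPM in the short-term T127 pools, over 726, 291 and 95 cells. The short-term ranges did not overlap, T127 being higher. Contractile fibroblasts (my_CAF) had 12.1 CPM in the long-term pools. In macrophages Gas6 was at 86.3 CPM in Macro-M2 and 25.9 in Macro-M1 (long-term), 3.34-fold (95% interval 2.97 to 3.76) higher in the former, with pool ranges apart. This log2 ratio was 1.82 in pools 1 to 4, 1.56 in pools 5 to 8 and 1.60 without pools 1 to 3.

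Mfge8, which encodes the bridge from phosphatidylserine to integrins, was high in both T22 clusters. Long-term Malign_3 was at 873 CPM in the lowest pool, 1107 at the median and 1263 in the highest, and Malign_2 at 939 CPM in the lowest pool, 1066 at the median and 1141 in the highest. Their ranges overlapped. Malign_0 was at 165 CPM in the lowest pool, 195 at the median and 200.5 in the highest, and Malign_1 at 136 CPM in the lowest pool, 153 at the median and 175 in the highest. Mfge8 was 6.13-fold (95% interval 6.03 to 6.24) higher in T22, with pool ranges apart and log2 ratios of 2.66 in pools 1 to 4, 2.57 in pools 5 to 8 and 2.57 without pools 1 to 3. The short-term T22 pools had 1488, 1568, 1427 and 1478 CPM in Malign_2 and 1320.3, 1095, 1186 and 1384 CPM in Malign_3. The short-term T127 pools had 267, 255, 261 and 262 CPM in Malign_0, which gave a model ratio of 6.35-fold (95% interval 6.27 to 6.43). my_CAF cells were at 775 CPM (496 to 1044 over pools, 117 cells) and endothelial cells at 329 (176 to 539). Macrophages had 46.9 CPM beside 28.0 in T and NK cells, with overlapping ranges, so the macrophage level was near the background of the pools.

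Pros1, the gene of protein S, had its highest long-term levels in stroma. It was at 195 CPM in i_CAF (172 to 216), 119 in my_CAF (106 to 145 in the 6 pools with at least 10 such cells) and 110.5 in endothelial cells (83.6 to 144). The i_CAF range lay apart from the others, and those of my_CAF and endothelium overlapped. Among malignant clusters the order was Malign_0 at 60.3 CPM (48.5 to 68.5), Malign_1 at 38.9 (33.2 to 48.0), Malign_2 at 27.5 (24.7 to 29.4) and Malign_3 at 3.29 (0.552 to 5.94), each apart from the next. T127 malignant cells lay 2.92-fold (95% interval 2.70 to 3.16) above T22, the reverse of Gas6 and Mfge8. The log2 ratio of T22 to T127 was -1.55 over all pools, -1.27 in pools 1 to 4, -1.87 in pools 5 to 8 and -1.69 without pools 1 to 3.

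In the short-term pools Pros1 was at 69.5, 84.4, 95 and 76.0 CPM in Malign_0 and 47.3, 43.7, 40.2 and 41.3 CPM in Malign_2. Malign_3 had 2.70, 2.69, 1.74 and 2.66 CPM, below the 4.01 CPM of T and NK cells there. T127 malignant cells were 1.97-fold (95% interval 1.88 to 2.06) above T22. Pros1 and Gas6, whose products share the receptors TYRO3 and MERTK, were thus higher in different malignant cells, Gas6 in T22 and Pros1 in T127. The Pros1 difference was much the smaller. Its long-term pools reached down to 33.2 CPM in Malign_1 and up to 29.4 in Malign_2. Both genes were carried by i_CAF.

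Joint detection of the T22 bridging genes likewise followed their levels. After thinning, 68.4% of long-term Malign_2 cells had UMIs of Gas6 and Mfge8, beside a product of the single shares of 67.9%, against 36.3% of Malign_3 and 2.06% of Malign_0. In the short-term pools the share was 80.4% in Malign_2, 53.7% in Malign_3 and 4.49% in Malign_0.

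**Figure D3:**
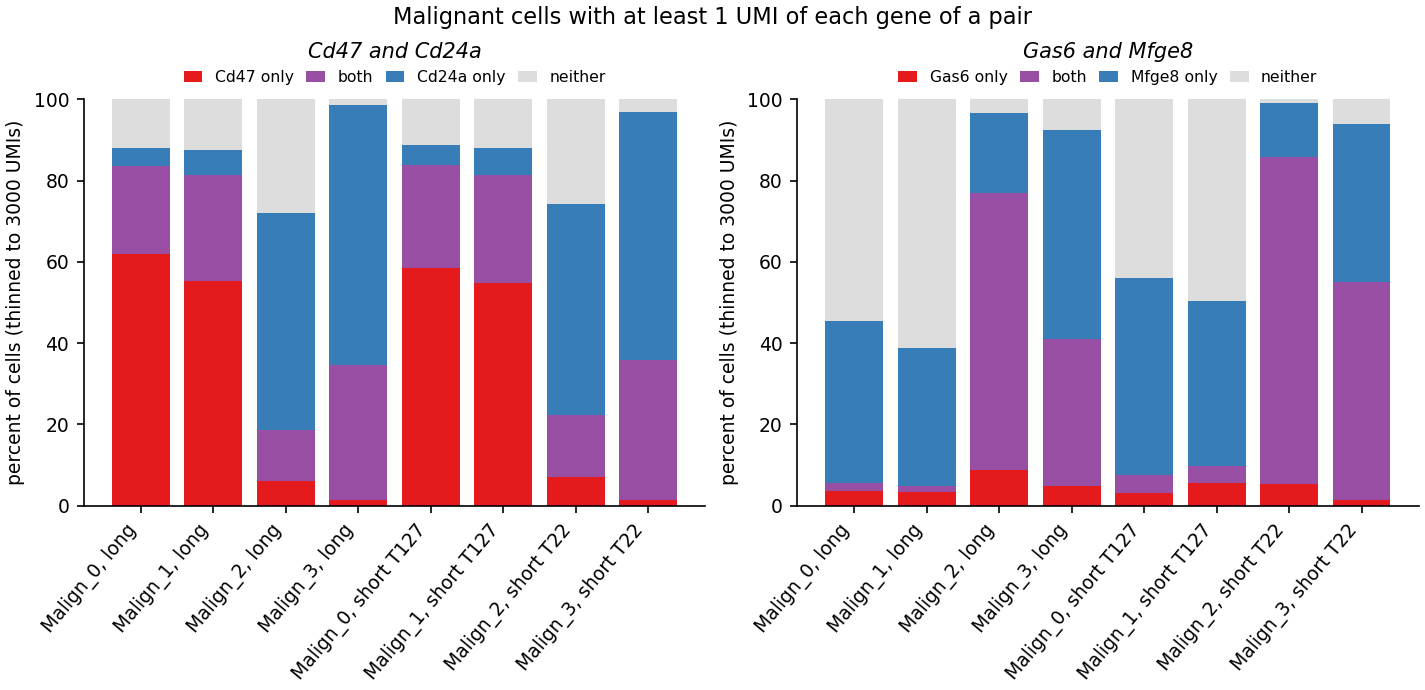
Percent of cells, thinned to 3000 UMIs, with at least 1 UMI of only the first, both, only the second or neither gene of a pair, for the malignant clusters of the long-term and short-term pools. Malign_0 and Malign_1 are mostly Cd47 alone or both ligands, Malign_2 and Malign_3 mostly Cd24a alone, in step with the level of each gene, and both Gas6 and Mfge8 are found in 68.4% of long-term Malign_2 cells.

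Counted together, the members separated the models in both directions. In the long-term pools 8 of the 10 genes were at 10 CPM or more in T22 or T127 malignant cells. Of these, 4 were at least 2-fold higher in T22 (Cd24a, Gas6, Mfge8 and Sirpa) and 4 at least 2-fold higher in T127 (Cd47, Pros1, Axl and Lrp1). Over all genes at that level, 39.2% of 8333 were past 2-fold in either direction. The median log2 ratio of T22 to T127 was 0.56 over the members and -0.02 over all genes. With 4 members on each side, the member median lies between the 2 sides and describes no member. In the short-term pools 4 of 8 members were at least 2-fold higher in T22 and 3 at least 2-fold higher in T127, beside 42.5% of 9227 genes, with medians of 0.47 and -0.10. Pros1 did not reach 2-fold there, but passed it without T22 pool 1, T127 pool 1 or T127 pool 4. Mertk and Tyro3 did not reach 10 CPM in either model.

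Sirpa, the inhibitory receptor for CD47, was found mainly in the macrophage clusters and CD16-CDKN1C. In long-term Macro-M2 cells it was at 162 CPM in the lowest pool, 178 at the median and 209 in the highest (3567 cells). Macro-M1 was at 104 CPM in the lowest pool, 123 at the median and 132 in the highest (982 cells). CD16-CDKN1C had 152 CPM, Macro-others 132 and Macro-MKI67, the dividing macrophages, 128. The ranges of Macro-M2 and Macro-M1 did not overlap, whereas neighbours in the order did. The ratio of Macro-M2 to Macro-M1 was 1.5-fold (95% interval 1.41 to 1.58), and its log2 was 0.58 over all pools, 0.50 in pools 1 to 4, 0.64 in pools 5 to 8 and 0.62 without pools 1 to 3. As clusters were made from the expression of these cells, this is a description of the names and not a test.

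Sirpa in malignant cells was at 1.23 CPM in T127 and 12.6 in T22 (long-term), so the 4 macrophage clusters were 121-fold (95% interval 102 to 146) and 11.8-fold (95% interval 10.8 to 12.9) above them. T22 malignant cells stood above T127 in both experiments, at 11.1 to 14.5 against 0.640 to 1.84 CPM over the long-term pools and 25.1, 26.9, 23.3 and 25.8 CPM against 0.571, 0.420, 0.655 and 0.651 CPM in the short-term pools. The long-term log2 ratio was 3.43 in pools 1 to 4, 3.29 in pools 5 to 8 and 3.14 without pools 1 to 3. The level in T and NK cells was 2.84 CPM in the long-term, 1.66 in the short-term T22 and 2.03 in the short-term T127 pools. i_CAF carried 47.9 CPM (37.8 to 62.2). After thinning, 34.6% (exact 95% interval 33.6 to 35.6) of long-term macrophages had a Sirpa UMI, against 0.454% of T and NK cells, at median depths of 10619 and 3678 UMIs. Unthinned, the shares were 69.9% and 1.2%.

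Macrophages of the short-term T127 tumors had more Sirpa RNA than those of T22 tumors. Macro-M2 cells were at 242, 238, 251 and 265 CPM in the T22 pools and 474, 525.9, 511 and 494 CPM in the T127 pools. CD16-CDKN1C cells were at 165, 176, 177 and 174 CPM in T22 and 566, 601, 592 and 682 CPM in T127. Every T127 pool lay above every T22 pool in both clusters. The ratio was 2.01-fold (95% interval 1.92 to 2.11) in Macro-M2, 1.72-fold (95% interval 1.60 to 1.86) in Macro-others, 2.17-fold (95% interval 1.99 to 2.36) in Macro-MKI67 and 3.51-fold (95% interval 3.27 to 3.75) in CD16-CDKN1C. CD16-CDKN1C cells held fewer UMIs per cell than Macro-M2 cells in both models. Markers of CD16-CDKN1C differed too, over 4205 cells in T22 and 402 in T127. Mrc1 was at 67.2 and 802 CPM, Itgam at 137 and 574, Cd14 at 649 and 1712 and Lyz2 at 7301 and 15442. The part of markers and depth in the Sirpa, Lrp1 and Mertk values of this cluster was not tested. In T127, the 198 Macro-MKI67 cells carried Epcam at 427 CPM and Cdh1 at 247, with Lyz2 at 11906 and Adgre1 at 47.8. The 213 Macro-others cells carried Epcam at 579 CPM and Hbb-bs at 1582, with Lyz2 at 9937. The part of these transcripts in the receptor ratios was not tested. Long-term Macro-M2 cells lay below both short-term groups. The related genes Sirpb1a, Sirpb1b, Sirpb1c and Gm9733, which resemble Sirpa in sequence and could share reads, were at 3.07, 16.3, 17.7 and 13.7 CPM in short-term T22 Macro-M2 cells and 3.23, 34.4, 39.3 and 9.63 in T127.

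Lrp1, the endocytic receptor, had its highest levels outside macrophages. In long-term Malign_0 it was at 669 CPM in the lowest pool, 806 at the median and 987 in the highest. Malign_1 was at 646 CPM in the lowest pool, 737 at the median and 985 in the highest, and i_CAF at 598 CPM in the lowest pool, 682 at the median and 759.6 in the highest. These 3 overlapped in range and lay above all other clusters. Malign_2 had 55.2 CPM (42.3 to 70.3) and Malign_3 13.0 (3.29 to 22.5), so T127 malignant cells were 20.4-fold (95% interval 19.3 to 21.4) above T22. The short-term pools had 1281, 1367, 1328 and 1373 CPM in Malign_0 and 1452, 1441, 1427 and 1489.9 CPM in Malign_1, against 103, 107, 94.8 and 89.3 CPM in Malign_2. The model ratio was 15.6-fold (95% interval 15.1 to 16.0). After thinning, 83.4% of long-term T127 malignant cells and 9.96% of T22 malignant cells had an Lrp1 UMI, and 4.63% of T and NK cells. Unthinned, these were 99.1%, 36.5% and 5.66%.

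In macrophages Lrp1 was at 139.9 CPM in the lowest pool, 171 at the median and 257 in the highest in long-term Macro-M2 and at 73.5 CPM in the lowest pool, 109 at the median and 160.2 in the highest in Macro-M1. Macro-M2 was the higher in 8 of 8 pools, by 1.52-fold (95% interval 1.44 to 1.62), although the ranges overlapped. The log2 ratio was 0.61 over all pools, 0.78 in pools 1 to 4, 0.62 in pools 5 to 8 and 0.62 without pools 1 to 3. The short-term T22 pools gave a ratio of 1.52-fold (95% interval 1.43 to 1.62), with ranges apart. Short-term Macro-M2 cells were at 194, 216, 233 and 206 CPM in T22 and 417, 400.1, 404 and 443 CPM in T127, and the ratio of T127 to T22 was 1.97-fold (95% interval 1.87 to 2.08). It was 1.54 in Macro-others, 2.21 in Macro-MKI67 and 2.56 in CD16-CDKN1C, with pool ranges apart in all 4. Lrp1 in T and NK cells, given here as a measure of free RNA in the pools, was at 26.4 CPM in the T127 pools and 3.72 in the T22 pools. Its part in the macrophage difference was not tested.

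Axl, a receptor for GAS6 that is induced in activated macrophages, was present in all macrophage clusters and unlike Sirpa, Lrp1 and Mertk was higher in Macro-M1 than in Macro-M2. Macro-M1 was at 179 CPM in the lowest pool, 204 at the median and 244 in the highest and Macro-M2 at 164 CPM in the lowest pool, 173 at the median and 179 in the highest (long-term). Macro-M1 was higher in 8 of 8 pools, by 1.23-fold (95% interval 1.18 to 1.29), and the ranges overlapped. The log2 ratio of Macro-M2 to Macro-M1 was -0.30 over all pools, -0.18 in pools 1 to 4, -0.38 in pools 5 to 8 and -0.35 without pools 1 to 3. In the short-term T22 pools it was again higher in Macro-M1 in 4 of 4 pools, by 1.1-fold (95% interval 1.06 to 1.15). Macro-others, CD16-CDKN1C and Macro-MKI67 were at 206, 177 and 143 CPM in the long-term pools.

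Between the short-term models Axl ran opposite to Sirpa. Macro-M2 cells had 362, 331, 339.9 and 334 CPM in the T22 pools and 217, 219, 231 and 228 CPM in the T127 pools. Each T22 pool lay above each T127 pool, by 1.53-fold (95% interval 1.46 to 1.61). Axl was also higher in T22 in Macro-others, by 1.72-fold (95% interval 1.58 to 1.87), and in CD16-CDKN1C, by 1.60-fold (95% interval 1.44 to 1.80), with ranges apart. In Macro-MKI67 the ranges overlapped and the ratio of T127 to T22 was 0.937-fold (95% interval 0.860 to 1.02). The share of thinned macrophages with an Axl UMI was 60.6% in T22, 39.8% in T127 and 40.6% in the long-term pools, against 2.36% of long-term T and NK cells. Unthinned, these were 84.7%, 67.8%, 75.2% and 3.21%. Macro-M1 made up 1203 of the T22 macrophages, and 3 cells carried that name in T127.

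Axl was not confined to phagocytes. i_CAF had the highest long-term level, 348 CPM, with 235 to 281 CPM in pools 1 to 4 and 387 to 463 CPM in pools 5 to 8, and their range overlapped that of Macro-M1. T127 malignant cells had 91.1 CPM in Malign_0 (85.2 to 100) and 62.4 in Malign_1 (57.9 to 67.1). The T22 clusters had 21.7 (15.4 to 28.9) and 3.99 (1.95 to 5.89). T127 malignant cells lay 5.47-fold (95% interval 5.03 to 5.97) above T22, and 7.37-fold (95% interval 7.01 to 7.75) in the short-term pools. The long-term log2 ratio of T22 to T127 was -2.45 in pools 1 to 4, -2.45 in pools 5 to 8 and -2.37 without pools 1 to 3. In the short-term pools Malign_0 had 257, 257, 273 and 243 CPM and Malign_1 185, 189.7, 199.5 and 174 CPM, against 32.1, 37.5, 31.1 and 33.9 CPM in Malign_2. Axl in Malign_0 was therefore higher in the short-term than in the long-term pools, by 2.83-fold (95% interval 2.75 to 2.91), and in Malign_1 by 3.00-fold (95% interval 2.88 to 3.13).

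Mertk, the kinase receptor of steady-state efferocytosis, was found mainly in the macrophage clusters and CD16-CDKN1C. In long-term Macro-M2 it was at 35 CPM in the lowest pool, 39.1 at the median and 50.2 in the highest, and in Macro-M1 at 19.7 CPM in the lowest pool, 30.4 at the median and 40.5 in the highest. Macro-M2 was higher in 7 of 8 pools, by 1.28-fold (95% interval 1.15 to 1.44), and the ranges overlapped. The log2 ratio was 0.36 over all pools, 0.43 in pools 1 to 4, 0.37 in pools 5 to 8 and 0.42 without pools 1 to 3. Malignant cells had 0.379 CPM in T127 and 0.840 in T22, beside 0.592 in T and NK cells, so they were at the background of the pools. The macrophage sum of 33.4 CPM was 88.0-fold (95% interval 64.0 to 125) above T127 malignant cells.

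Macrophages of short-term T127 tumors had more Mertk than those of T22 tumors. Macro-M2 cells were at 25.8, 23.5, 22.6 and 33.9 CPM in T22 and 65.7, 62.2, 65.6 and 62.9 CPM in T127. Ranges did not overlap, and the ratio was 2.40-fold (95% interval 2.08 to 2.78). It was 2.02-fold (95% interval 1.62 to 2.51) in Macro-others, 2.22-fold (95% interval 1.63 to 3.03) in Macro-MKI67 and 4.13-fold (95% interval 3.24 to 5.24) in CD16-CDKN1C, all with ranges apart. Contractile fibroblasts of the short-term T22 pools carried Mertk at 31.5, 22.4, 20.0 and 22.1 CPM. UMIs of both kinase receptors were found in 3.61% of thinned long-term macrophages, the product of the single shares being 3.62%, with 8.92% having a Mertk UMI at all (25.2% unthinned) and 0.0908% of T and NK cells.

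Tyro3, the remaining kinase of the family, was all but absent from macrophages. Long-term macrophages held 11 Tyro3 UMIs in 8928 cells, 0.108 CPM (95% interval 0.0541 to 0.194). T127 and T22 malignant cells had 2.11 and 2.26 CPM, and 5.30 and 5.31 CPM in the short-term pools. No long-term cluster reached 10 CPM. In the short-term T22 pools Malign_3 was at 11.3, 15.3, 6.10 and 7.10 CPM and the dividing T cells named Tprf-MKI67 at 14.4, 10.4, 10.1 and 7.22 CPM.

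**Figure D4:**
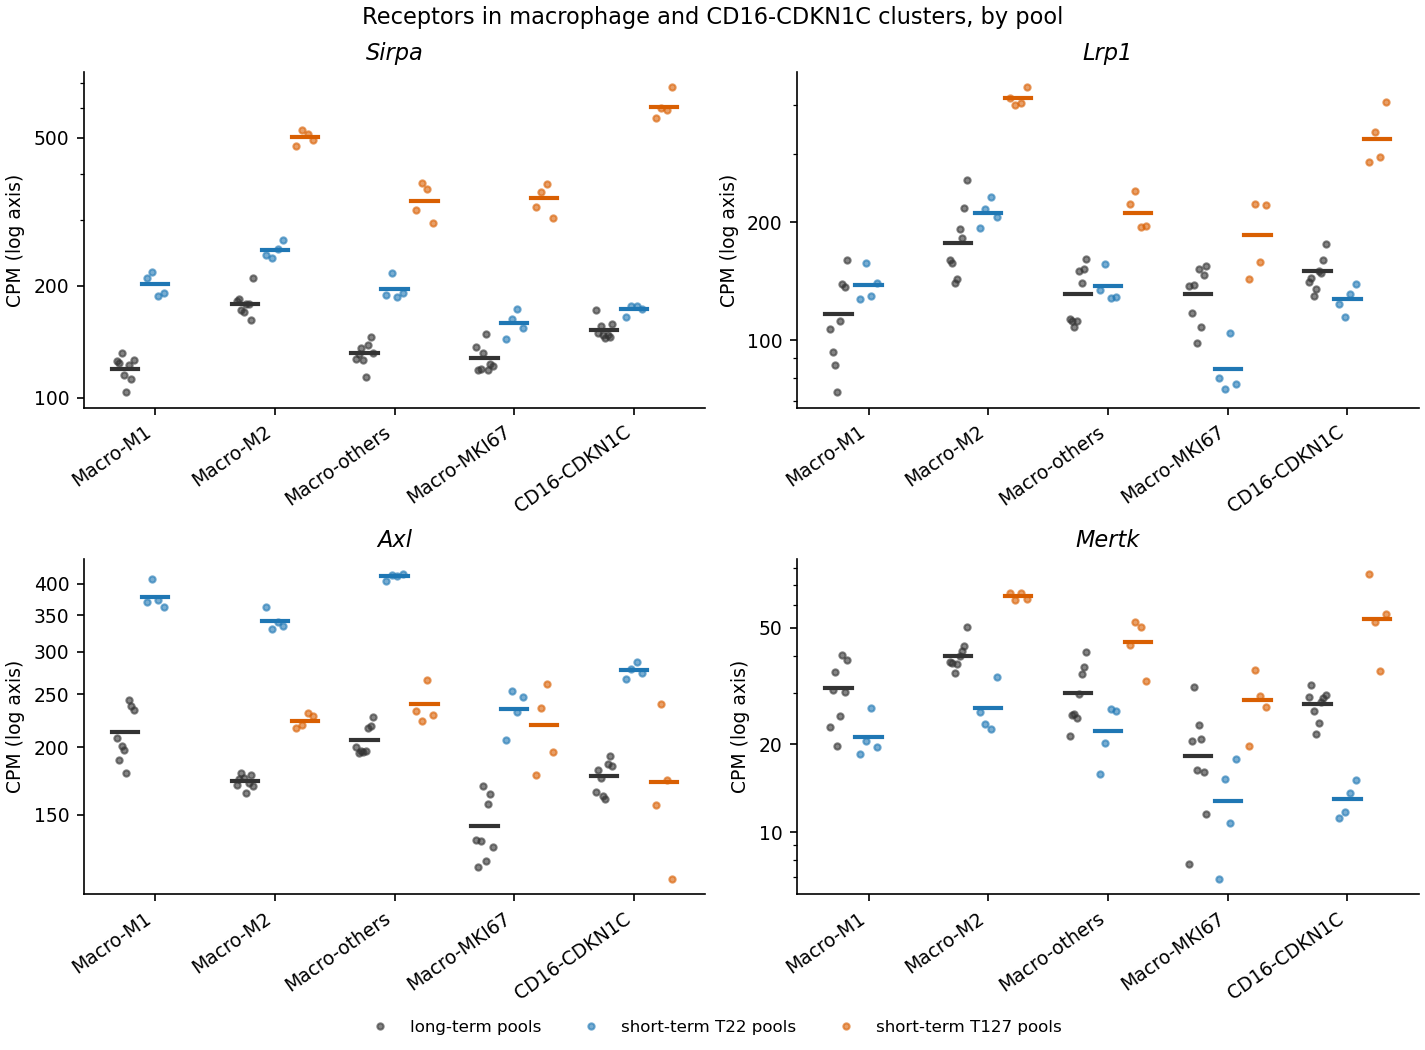
Levels in CPM (log axis) of Sirpa, Lrp1, Axl and Mertk in macrophage and CD16-CDKN1C clusters, with a dot for each pool and a bar for the level over all pools of an experiment. Clusters under 50 cells in the short-term T127 pools (Macro-M1) are not drawn, and in Macro-M2 the short-term T127 dots lie above the T22 dots for Sirpa, Lrp1 and Mertk and below them for Axl, 217 to 231 against 331 to 362 CPM.

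Read as a set, most members lay within 2-fold between Macro-M2 and Macro-M1. Of 9 members at 10 CPM or more in the long-term pools, 2 were at least 2-fold higher in Macro-M2 (Cd24a and Gas6) and none was 2-fold lower, beside 3.38% of 6874 genes past 2-fold in either direction, nearly all of them higher in Macro-M2 (225 of 232). The median log2 ratio was 0.5 over the members and 0.1 over all genes. Cd24a was at 47.9 CPM in Macro-M2 and 16.6 in Macro-M1, 2.89-fold (95% interval 2.49 to 3.36). Its log2 ratio was 1.33 in pools 1 to 4, 1.76 in pools 5 to 8 and 1.48 without pools 1 to 3. In the short-term T22 pools it lay the other way, 38.8, 34.5, 31.8 and 23.5 CPM in Macro-M2 and 48.7, 38.5, 57.8 and 62.5 CPM in Macro-M1. The difference between these 2 ratios was not tested. The epithelial marker Epcam moved with Cd24a, at 48.8 CPM in short-term T22 Macro-M2 and 123 in Macro-M1, and Cdh1 at 14.3 and 24.9. The keratin genes Krt8 and Krt18 of the same marker list were at 6.16 and 2.91 CPM in short-term T22 Macro-M1. Long-term Macro-M2 cells had 85.3 CPM of Epcam and Macro-M1 cells 47.1, with Cdh1 at 21.2 and 6.46. The source of the Epcam and Cdh1 transcripts, and their part in the Cd24a values, were not tested.

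Between short-term models, 3 of 9 members were at least 2-fold higher in Macro-M2 cells of T127 than of T22 (Sirpa, Mfge8 and Mertk) and none was 2-fold lower, beside 14.3% of 7778 genes past 2-fold in either direction. With 1 pool left out the count was 2 to 4, lowest without T22 pool 1, and Sirpa was also under 2-fold without T22 pool 2 or T127 pool 2. Without mitochondrial and ribosomal protein genes its log2 ratio was 0.91, which is under 2-fold. The medians were 0.76 for the members and 0.10 for all genes on the log2 scale. Lrp1, at 1.97-fold, did not reach that mark, and Cd47 was 1.69-fold (95% interval 1.63 to 1.76) higher in T127, at 461, 409, 358 and 379.9 CPM in T22 and 685, 709, 709 and 634 CPM in T127. Pros1 lay lower in T127, 1.99-fold (95% interval 1.72 to 2.30), at 56.9, 38.5, 48.3 and 46.7 CPM in T22 and 22.7, 26.6, 21.8 and 24.6 CPM in T127. Cd24a and Gas6 had overlapping ranges in Macro-M2. After thinning, 7.16% of Macro-M2 cells in T22 and 13.4% in T127 had an Mfge8 UMI. Macrophage Mfge8 was near the background in the long-term pools. The part of free RNA in its short-term ratio was not tested. Markers and depth also differed. The summed level of the 8 macrophage markers in Macro-M2 was 17793 (15700.4 to 19153 over pools) CPM in T22 and 26223 (24182 to 28675 over pools) in T127 pools. That of the 4 epithelial markers Epcam, Cdh1, Krt8 and Krt18 was 72.0 (63.0 to 90.9 over pools) and 298 (261 to 314 over pools) CPM. In T127 Macro-M2 cells these 4 were at 144, 135, 12.9 and 6.68 CPM. In short-term Malign_0 cells they were at 0.893, 0.436, 1412 and 655 CPM. The macrophage markers did not differ in one direction. In T22 and T127, Lyz2 was at 8682 and 16784 CPM and the mannose receptor gene Mrc1 at 186 and 1047, whereas C1qa stood at 5401 and 3585, Csf1r at 1122 and 601 and Adgre1 at 154 and 125. The 3 neutrophil markers summed to 23.0 (13.7 to 43.6 over pools) CPM in T22 and 164 (66.3 to 295 over pools) in T127, with S100a8 at 10.4 and 63.3 CPM and S100a9 at 1.32 and 91.7. The 2 red cell markers summed to 0.659 (0.404 to 1.03 over pools) and 337 (11.6 to 1443 over pools) CPM, and the 3 B cell markers were at 0 in T127. Median depth of Macro-M2 cells was 13221 UMIs in T22 and 11285 in T127. Their part in the differences was not tested.

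In Macro-others, Cd24a was 5.98-fold (95% interval 5.08 to 7.06) higher in T127 (119 against 19.9 CPM) and Mfge8 4.26-fold (95% interval 3.67 to 4.94) higher. Epcam was at 579 and 40.4 CPM there, and Cdh1 at 192 and 12.7, whereas Epcam was at 0.893 in short-term Malign_0. Krt8 and Krt18 were at 31.0 and 20.6 CPM in T127 Macro-others and at 1412 and 655 in short-term Malign_0. The source of the Epcam and Cdh1 transcripts, and their part in the Cd24a and Mfge8 values of these 213 cells, were not tested.

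**Figure D5:**
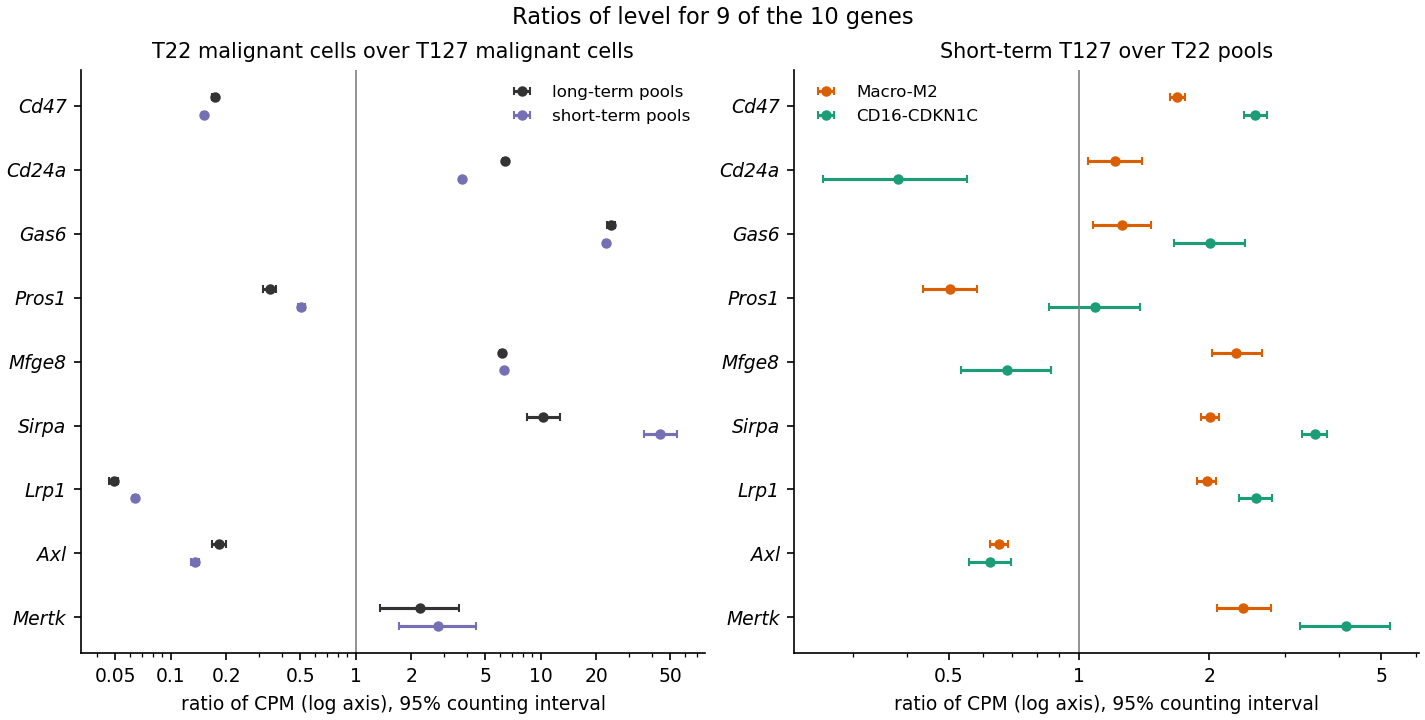
Ratios of CPM with 95% counting intervals (log axis) for 9 genes, T22 over T127 malignant cells on the left and short-term T127 over T22 pools in Macro-M2 and CD16-CDKN1C cells on the right, with Tyro3 left out for its low counts. On the left Cd24a, Gas6, Mfge8 and Sirpa lie above 1 and Cd47, Pros1, Lrp1 and Axl below 1 in both experiments, and on the right Sirpa, Lrp1 and Mertk lie above 1 and Axl below 1 in both clusters.

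Short-term and long-term tumors were compared within each malignant cluster. Cd47 and Cd24a had overlapping pool ranges in all 4 clusters. Lrp1 was higher in the short-term pools by 1.65-fold (95% interval 1.63 to 1.66) in Malign_0, 2.00-fold (95% interval 1.97 to 2.02) in Malign_1 and 1.79-fold (95% interval 1.68 to 1.90) in Malign_2, with ranges apart. In Malign_3 it was lower, at a log2 ratio of -1.45, and the ranges overlapped. Mfge8 was 1.37, 1.31 and 1.41-fold higher in Malign_0, Malign_1 and Malign_2. Sirpa in Malign_2 was at 26.4, 28.3, 23.0 and 26.6 CPM in the short-term and 11 to 18.2 CPM in the long-term pools. Time, tumors, hosts with a second tumor and sequencing depth all differed between the experiments and cannot be told apart.

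Other genes of the pathway were taken from a list of 57. Of these, 39 were at 10 CPM or more in long-term Macro-M2 or Macro-M1 cells, 3 were at least 2-fold higher in Macro-M2 and none 2-fold lower, beside 3.38% of 6874 genes past 2-fold in either direction. The median log2 ratio was -0.01, and 0.10 over all genes. The highest ratios were those of Thbs1, an adhesive glycoprotein that bridges apoptotic cells (6.71-fold), Timd4, a phosphatidylserine receptor (2.80), Pirb, an inhibitory receptor (2.17), and Anxa1, a phospholipid-binding protein (1.82). The lowest were those of Itgb5, an integrin subunit used with MFG-E8 (0.607), Nr1h3, the lipid sensor LXRα (0.661), the scavenger receptor Cd36 (0.685) and the chemokine receptor Cx3cr1 (0.766). Pool ranges were apart for Thbs1, at 61.3 to 402 CPM in Macro-M2 and 2.66 to 43.1 in Macro-M1, for Pirb, at 93.2 to 126 and 34.3 to 55.8, and for Anxa1, at 412 to 475 and 156 to 346. They overlapped for Timd4, at 5.90 to 22.2 and 2.12 to 10.7 CPM, and for Itgb5, Nr1h3, Cd36 and Cx3cr1. In Macro-M2 cells of the short-term pools 42 of 57 were at 10 CPM or more, 5 at least 2-fold higher in T127 and 6 at least 2-fold higher in T22, beside 14.3% of 7778 genes past 2-fold in either direction. The median log2 ratio was 0.14, and 0.10 over all genes. Of the genes named above, the ratio of T127 to T22 in these cells was 13.2 for Thbs1, 2.67 for Anxa1, 1.95 for Pirb, 1.17 for Nr1h3, 0.214 for Itgb5, 0.159 for Cd36 and 0.150 for Cx3cr1, and Timd4 was under 10 CPM. Pool ranges of the models overlapped for Nr1h3 and were apart for the other 6.

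In malignant cells the list of inhibitory ligands, opsonins and exposure genes held 18 genes. Of these 13 were at 10 CPM or more in the long-term pools, 4 were at least 2-fold higher in T22 and 3 at least 2-fold higher in T127, beside 39.2% of 8333 genes past 2-fold in either direction. The median log2 ratio was 0.68 with the complement genes C1qa, C1qb and C1qc and -0.27 for the other 10 genes, and it was -0.02 over all genes. In T22 and T127 malignant cells, C1qa was at 51.2 and 31.0 CPM, C1qb at 41.9 and 25.9 and C1qc at 26.4 and 16.5. C1qa stood at 8632 CPM in Macro-M2 cells, and the part of free macrophage RNA was not tested. The highest ratios of T22 to T127 were those of Ptx3, a soluble pattern recognition protein (56.5-fold), Thbs1 (32.5), Stc1, a glycoprotein that can hold back calreticulin (17.6), and Panx1, the channel that releases find-me nucleotides (4.97). The lowest were those of Anxa5, which encodes annexin A5 itself (0.136), Lgals3, the lectin galectin-3 (0.407), Calr, the gene of the eat-me protein calreticulin (0.488), and Anxa1 (0.507). Pool ranges of the models were apart for all 8 of these genes. Calr, a ligand of LRP1, was thus higher in the T127 malignant cells, as were Lrp1 and Cd47.

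The genes whose pattern was most like a member were sought over the 21 long-term clusters among 11794 genes, by Pearson's r of log2(CPM + 1). This is a description, since the clusters share libraries and related cells. For Cd47 they were Rsbn1 (0.860), Spen (0.834) and 4933434E20Rik (0.832). For Cd24a they were Rpe (0.822), Coasy (0.822) and Mrpl43 (0.813). Sirpa was followed by C3ar1 (0.936), Atp6v0d1 (0.935) and Lacc1 (0.934), and Mertk by Plau (0.926), Kcnj10 (0.922) and Ch25h (0.922). Axl was followed by Ccl2 (0.927), Mitf (0.913) and Bach1 (0.908). For the bridging genes they were Dram1 (0.887), Pdgfc (0.877) and Tmc4 (0.876) with Gas6, Spred1 (0.932), Cdc42ep2 (0.926) and Tnfrsf1a (0.918) with Pros1, and 4833439L19Rik (0.918), Akt1 (0.913) and Tpm1 (0.911) with Mfge8. Tyro3 did not reach 10 CPM and was not placed. By Spearman's rho none of the 9 members kept all 3 of its genes. With a pseudocount of 10 CPM in place of 1, 8 of the 9 did not, so the names turn on the measure and the pseudocount.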

How the data were processed

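Single-cell suspensions of MDST tumors were sequenced with the 10x Genomics 3' v3.1 kit in 16 pools. The authors aligned reads to GRCm38 with Cell Ranger 6.0.0, introns included, left out cells with few genes or many mitochondrial reads and removed doublets with Scrublet, and they deposited raw UMI counts per gene and cell with a cluster name for each cell. Doublets were not called again. Normalized values deposited beside the counts were not used. The members and gene lists were chosen with earlier results of these data known.

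Pools were grouped by their labels (8 long-term, 4 short-term T22, 4 short-term T127). Counts were summed per cluster and experiment and divided by all UMIs of those cells. In the long-term pools each shared barcode entered once, at its deepest copy. Clusters entered with at least 50 cells, and pools with at least 10 cells of a cluster. No test was possible, since no group holds replicates. Levels carry exact Poisson, shares exact Clopper-Pearson and ratios conditional binomial 95% intervals, which cover counting error only. Totals were 34755906 to 55600377 UMIs per pool. For shares, cells were thinned to 3000 UMIs. T and NK cells served as background because fewer than 50 B cells reached that depth, a departure from the plan. A gene counted as past 2-fold with at least 10 CPM in 1 of the 2 groups. The named genes were the 10 members, Sirpa relatives, for each member the 3 genes of highest correlation, and from the pathway lists the 4 highest and 4 lowest long-term ratios of Macro-M2 to Macro-M1 and of T22 to T127 malignant cells. Marker genes came from fixed lists. The genes most like Lrp1 are not reported here.

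Alternatives were every copy of shared barcodes, at least 1000 genes per cell, no top 5% of cells by UMIs, means per cell, no mitochondrial or ribosomal protein genes, other filters, thinning to 1500 UMIs or none, a pseudocount of 10 CPM, rank correlation and each pool left out. Leaving out pools 1 to 3 and using pools 1 to 4 or 5 to 8 alone were added after the data were seen. Python 3.11.15 with numpy 2.4.6, scipy 1.17.1 and matplotlib 3.10.9 was used. The code for ratio intervals, like genes and outlying pools was checked on values with known answers. No mouse genome or sequence table was used here, so no sequence is shown.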

Additional observations from a re-analysis of the deposited data

Results flagged for a closer look

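In 8 of 111 sets of pools compared, 1 pool lay far from the others by Dixon's criterion at the 95% level, which chance alone gives in about 1 in 20 sets. In the long-term pools, Mfge8 in Malign_0 was at 165 CPM in pool 4 against 187 in the nearest other pool. Cd47 in Malign_3 was at 115 CPM in pool 2 against 150.2. Sirpa in Macro-M2 was at 209 CPM in pool 8 against 184.

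In the short-term T22 pools, Pros1 in Malign_3 was at 1.74 CPM in pool 3 against 2.66 in the nearest other pool. In Macro-MKI67, Cd47 was at 433 CPM in pool 1 against 358, and Lrp1 at 104 CPM in pool 3 against 79.7. In Macro-others pool 2 stood apart for both genes of the CD47 axis, with Cd47 at 258 CPM against 277 and Sirpa at 217 CPM against 192.

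Cd24a differed in direction between experiments. The ratio of Macro-M2 to Macro-M1 was 2.89 in the long-term pools, where Macro-M2 was higher in 8 of 8 pools, and 0.618 in the short-term T22 pools, where it was lower in 4 of 4 pools. The difference was not tested. Epcam, an epithelial marker, was at 85.3 CPM in Macro-M2 and 47.1 in Macro-M1 in the long-term pools, and at 48.8 and 123 in the short-term T22 pools. Its part in the Cd24a ratios was not tested.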

How the results depend on the processing

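The alternatives were run on 18 log2 ratios, those of the ligands and bridging genes between models and of Sirpa, Lrp1, Axl and Mertk between Macro-M2 and Macro-M1 and between short-term Macro-M2 cells, and none of these reversed. Other ratios were computed only in the sets of long-term pools. Of 101 ratios that use the long-term pools, 94 kept their direction in both sets of pools and without pools 1 to 3. The others were Lrp1 of pDC over B cells and 6 short-term over long-term ratios of Cd47 or Cd24a in a malignant cluster, such as Cd24a in Malign_0, whose log2 was 0.20 over all pools, 0.56 against pools 1 to 4 and -0.03 against pools 5 to 8. In 5 of the 101 the ratio moved by over 1.5 times in a set. These were the ratios of macrophages to T and NK cells for Pros1 (2.86 over all pools, 3.87 in pools 1 to 4 and 2.51 in pools 5 to 8 on the log2 scale), Lrp1 (3.03, 3.99 and 2.86) and Gas6 (2.79, 3.42 and 2.39), Pros1 of Malign_3 over Malign_2 (-3.06, -2.62 and -3.72) and Tyro3 of short-term over long-term Malign_3 cells (1.89, 1.38 and 2.72). Keeping every copy of shared barcodes, requiring 1000 genes per cell, leaving out long-term pools 1 to 3 and leaving out each pool in turn moved none of the 18 log2 ratios by more than its spread over pools and no count by more than 1.5 times. No paired analysis was possible because no result comes from a test. The long-term cell groups of a pool were captured together, and the SD of the within-pool log2 ratio over the 8 pools was 0.08 for Mfge8 to 0.35 for Pros1 between models and 0.12 for Sirpa to 0.33 for Mertk between Macro-M2 and Macro-M1. Some of the 18 moved by more than that spread, and the cause was not tested. Gas6 of T22 over T127 malignant cells was 4.35 without the top 5% of cells (4.58 with them) in the long-term pools and 4.31 as a mean per cell (4.49 summed) in the short-term pools. Short-term Pros1 was -1.22 as a mean per cell (-0.98 summed), and short-term Mfge8 2.60 without the top 5% of cells (2.67). Lrp1 of Macro-M2 over Macro-M1 was 0.78 in long-term pools 1 to 4 alone (0.61 over all 8). For short-term Macro-M2 cells of T127 over T22, Sirpa was 0.91 without mitochondrial and ribosomal protein genes (1.01), and Axl -0.72 without them and -0.70 as a mean per cell (-0.61). Counts of genes past 2-fold were higher with a lower minimum, since more genes entered. At 1 CPM or more and at 1 UMI or more they were 759 and 5065 for Macro-M2 over Macro-M1, 5746 and 11853 for the long-term models, 2587 and 6536 for short-term Macro-M2 cells, and 6335 and 13279 for the short-term models.

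With 1 pool left out, log2 ratios of T22 to T127 ranged over -2.56 to -2.50 for Cd47, 2.62 to 2.71 for Cd24a, 4.53 to 4.61 for Gas6, -1.61 to -1.48 for Pros1 and 2.60 to 2.63 for Mfge8 in the long-term pools. The members past 2-fold numbered 2 to 4 for short-term Macro-M2 cells and 7 to 8 for the short-term models. Of 220 levels of a member in a cluster, 133 were higher by more than their spread over pools without mitochondrial and ribosomal protein genes, whose removal lowers the total, and none was lower. As means per cell 19 were higher and 10 lower, and without the top 5% of cells 10 were higher and 6 lower. Shares of cells depended on depth, and 181 of 190 lay outside their interval without thinning. Depth limits Tyro3, Mertk in malignant cells and clusters of under 100 cells.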
